A study of Mus musculus with 6 samples.

Results

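Described here are 10 genes of ADP-ribosylation in mouse peritoneal macrophages, out of 19935 genes measured through probes that name a single gene. They are Parp1, Parp2, Parp3, Parp8, Parp9, Parp10, Parp11, Parp12 and Parp14, which belong to the poly(ADP-ribose) polymerase (PARP) family, and Dtx3l, the ubiquitin ligase that binds Parp9. The set was chosen on results of these same arrays, so every value of the 10 genes is a description, given with its standard error and without a p-value. The macrophages came from C57BL/6 mice and were measured on 6 Affymetrix arrays, 2 in each of 3 groups. Untreated macrophages received no agent, and their time in culture is not stated. A second group received poly I:C at 2 ug/mL for 24 h. Poly I:C is an artificial RNA duplex that imitates viral RNA. The remaining group received PAM at 1 ug/mL for 24 h. PAM is described as PAMCSK3 on its sample 1 and as PAMCSK4 on its sample 2, and which compound was used was not settled here. Whether the pair of samples in a group derived from different mice or dishes is not stated. Standard errors and p-values thus cover no more than the variation within these pairs, which may be technical. They come from limma, which pools each gene's spread with that of all genes, so a standard error is not the gene's own replicate spread.

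ADP-ribosyltransferases take ADP-ribose from NAD and attach it to proteins or nucleic acids, either as a single unit or as a chain. Parp1 and Parp2 make chains at broken DNA and recruit repair proteins, and most of the other family members add single units. Several of the latter carry macrodomains, WWE domains or zinc fingers and are known as interferon-stimulated genes that act against viruses in macrophages. Double-stranded RNA is sensed by Toll-like receptor 3 and by cytosolic sensors, which lead to type I interferon, and bacterial lipopeptides are sensed by Toll-like receptor 2.

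The deposited values are centred on each probe's median over the 6 arrays and were taken as log2, so they show differences between arrays and not levels. When the PAM arrays hold the middle 2 of the 6 values, their mean is 0 by construction, as it was for 8 of the 10 genes. A difference between groups is not touched by the centring. Each of the 10 genes had 1 probe. In these bulk samples, fewer cells that express a gene and less RNA per cell cannot be told apart.

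Most of the set had its highest values with poly I:C, and Parp1 had its lowest. Against untreated macrophages, 8 of the 10 genes were higher and 1 was lower past a limma adjusted p of 0.05, where 12.1% of all genes were higher and 18.2% were lower. Against the same untreated arrays, PAM left 6 genes higher and 2 lower past that threshold, where 11.0% of all genes were higher and 14.0% lower. In the direct comparison, 9 genes were higher under poly I:C and 1 was lower, where 12.9% of all genes were higher and 15.8% lower. The median log2 difference of the 10 genes was 2.33 for poly I:C minus untreated, 0.84 for PAM minus untreated and 1.19 for poly I:C minus PAM. Over all genes the corresponding medians were 0.01, -0.00 and 0.01. Because the same contrasts chose the genes, nothing is read from these counts.

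**Figure D1:**
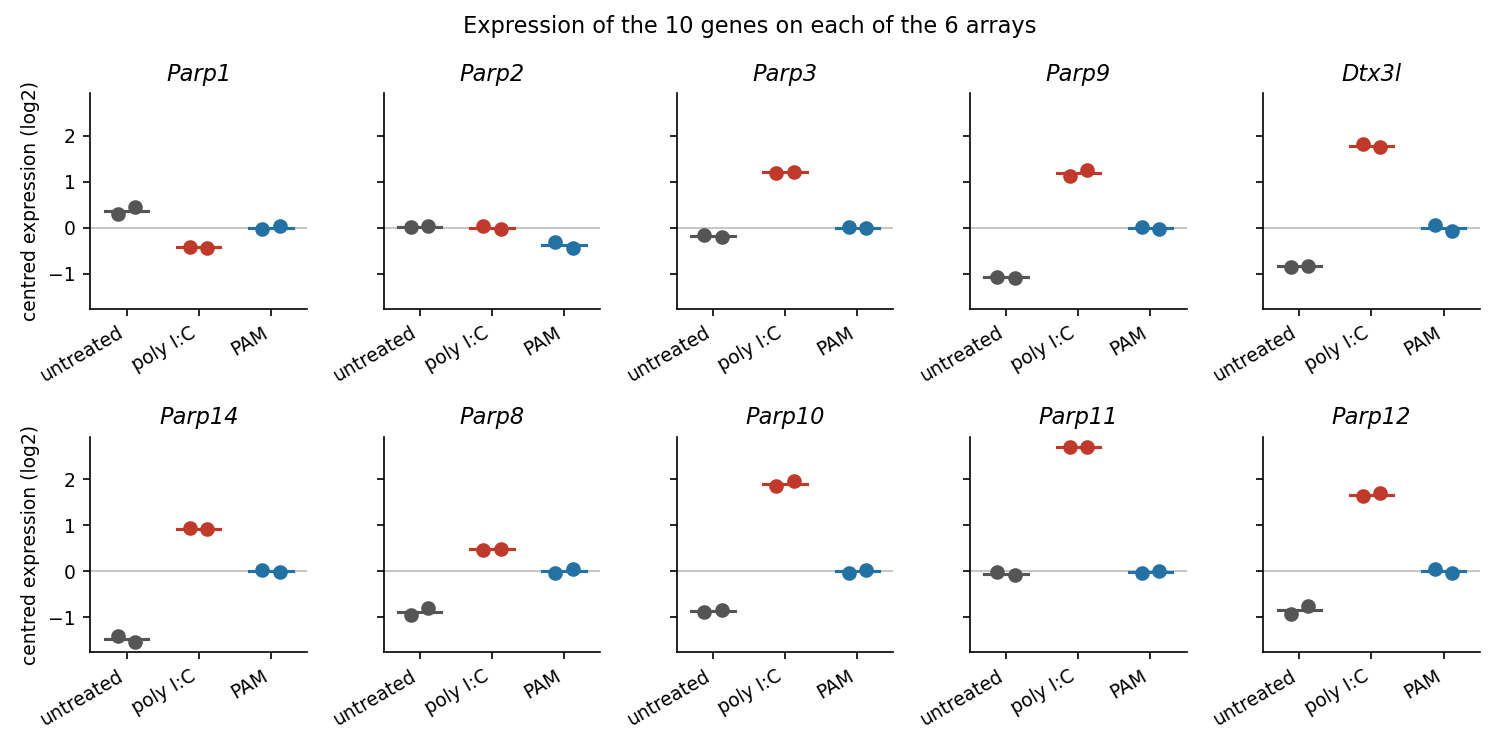
Centred log2 expression (y axis) of the 10 genes on each of the 6 arrays, with untreated, poly I:C and PAM samples side by side (x axis), points for arrays and lines for group means of 2 arrays. The poly I:C points lie highest in 8 panels, lowest in the Parp1 panel, and among the untreated points in the Parp2 panel.

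The DNA-break enzymes went different ways. Parp1, the main sensor of DNA strand breaks and a known cofactor of NF-kappaB, stood at 0.29 and 0.44 on the untreated arrays, at -0.41 and -0.44 after poly I:C and at -0.03 and 0.03 after PAM. The groups did not overlap, with untreated macrophages highest and poly I:C lowest. Its difference after poly I:C was -0.79 ± 0.07 (log2, difference ± limma SE, n = 2 per group), which is 1.72-fold lower. After PAM its difference was -0.36 ± 0.07, and without PAM sample 1 that difference was -0.33.

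Parp2, which shares the strand-break role of Parp1, stood at 0.02 and 0.03 untreated, at 0.03 and -0.02 after poly I:C and at -0.31 and -0.43 after PAM. Here the PAM arrays alone were low, and the untreated and poly I:C values overlapped. Its difference was -0.40 ± 0.07 for PAM minus untreated and -0.02 for poly I:C minus untreated, with a 95% interval from -0.18 to 0.14 for the latter. So Parp1 had its lowest values under poly I:C and Parp2 had its lowest under PAM.

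Parp3, an enzyme of double-strand break repair that mainly adds single ADP-ribose units, was high with poly I:C. It stood at -0.15 and -0.19 untreated, at 1.19 and 1.21 after poly I:C and at 0.01 and -0.01 after PAM. The poly I:C difference was 1.37 ± 0.06, a fold of 2.58. The PAM difference was smaller, 0.17 ± 0.06, although the 2 PAM values lay above both untreated values. The 250 bases before the annotated start of Parp3, at chr9:106476950-106477199 on the minus strand of GRCm38.p6, are shown from RefSeq because they hold none of the motifs searched for below, in contrast with Parp11.

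Parp3: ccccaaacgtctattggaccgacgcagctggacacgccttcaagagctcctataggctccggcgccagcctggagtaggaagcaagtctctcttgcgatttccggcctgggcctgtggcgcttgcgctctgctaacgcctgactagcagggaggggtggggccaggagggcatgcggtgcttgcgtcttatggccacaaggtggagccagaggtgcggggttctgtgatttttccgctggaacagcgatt

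Parp9, Dtx3l and Parp14 lie next to each other on chromosome 16, and each was highest with poly I:C, lowest untreated and intermediate with PAM. Parp9 carries macrodomains and works as a complex with Dtx3l, which supplies the ubiquitin ligase activity. Parp9 stood at -1.07 and -1.08 untreated, at 1.13 and 1.25 after poly I:C and at 0.02 and -0.02 after PAM. Its difference from untreated was 2.26 ± 0.07 with poly I:C, a fold of 4.8, and 1.08 ± 0.07 with PAM, a fold of 2.11.

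Dtx3l stood at -0.84 and -0.83 untreated, at 1.81 and 1.75 after poly I:C and at 0.07 and -0.07 after PAM. The difference was 2.61 ± 0.07 with poly I:C and 0.84 ± 0.07 with PAM. The spans of Dtx3l and Parp9 overlap in the RefSeq annotation, and whether either probe reads both transcripts was not tested. Their values did not move in parallel: Dtx3l minus Parp9 was 0.23 and 0.24 untreated, 0.68 and 0.50 after poly I:C and 0.05 and -0.05 after PAM. Both are centred values, so only the change of this gap from untreated can be read. That change was 0.35 with poly I:C and -0.24 with PAM, is given without a standard error and was not tested.

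Parp14, a large macrodomain protein that adds single ADP-ribose units and is known as a cofactor of Stat6, stood at -1.41 and -1.54 untreated, at 0.93 and 0.91 after poly I:C and at 0.02 and -0.02 after PAM. It was higher by 2.40 ± 0.07 with poly I:C, a fold of 5.27. With PAM it was higher by 1.48 ± 0.07, a fold of 2.78, the largest PAM difference among the 10 genes. Poly I:C exceeded PAM by 0.92 ± 0.07 for Parp14, by 1.19 ± 0.07 for Parp9 and by 1.78 ± 0.07 for Dtx3l. PAM's difference from untreated was thus a larger part of the poly I:C difference for Parp14 than for Dtx3l.

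The genes on either side of the trio had smaller or opposite differences. Hspbap1, beside Parp14, had a difference of -0.06 ± 0.07 with poly I:C (limma adjusted p = 0.585) and 0.10 ± 0.07 with PAM (adjusted p = 0.395). Kpna1, beside Parp9, encodes an importin alpha, a carrier of nuclear import, and fell by 0.31 ± 0.06 with poly I:C (limma adjusted p = 0.00463), with a PAM difference of 0.13 ± 0.06 (adjusted p = 0.183). Further along, Fam162a fell by 0.58 ± 0.06 with poly I:C (limma adjusted p = 0.00011) and rose by 0.23 ± 0.06 with PAM (adjusted p = 0.0298). Gene order was taken from RefSeq on GRCm38.p6, and these neighbours were looked up after values had been seen.

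**Figure D2:**
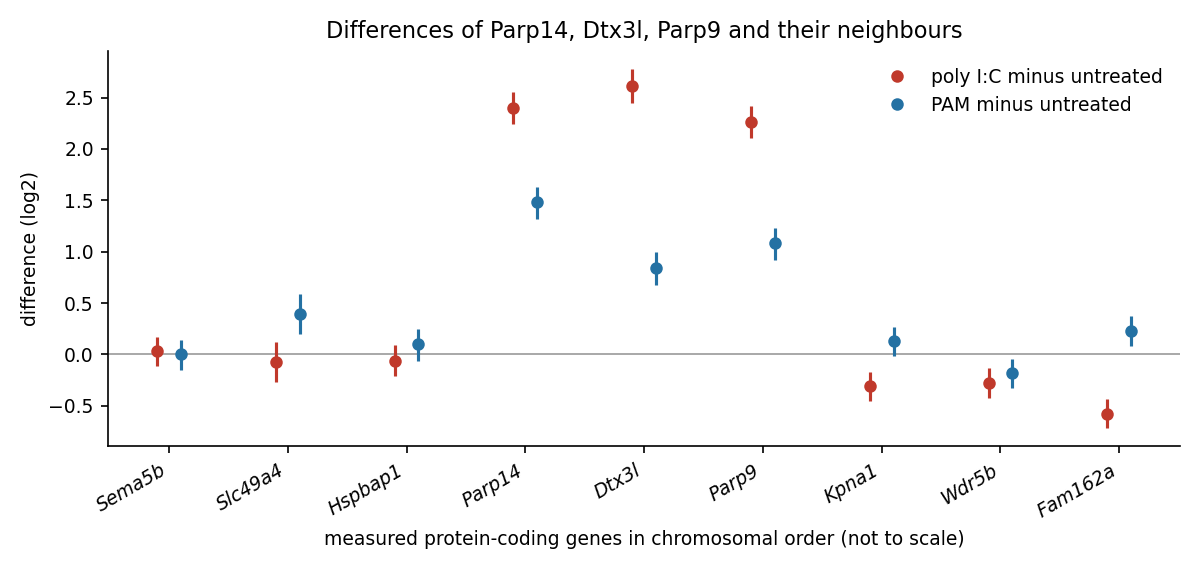
Log2 difference from untreated macrophages (y axis) for Parp14, Dtx3l, Parp9 and the measured protein-coding genes around them in chromosomal order (x axis, not to scale), with 95% intervals as bars, poly I:C and PAM in separate colours and 2 arrays per group. Only the trio lies above 2 with poly I:C, and Hspbap1 and Kpna1 on its sides lie at -0.06 and -0.31.

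Parp10, Parp11, Parp12 and Parp8 are enzymes that add single ADP-ribose units. Parp10, which has RNA-recognition and ubiquitin-interaction motifs, stood at -0.89 and -0.84 untreated, at 1.84 and 1.96 after poly I:C and at -0.03 and 0.03 after PAM. The 3 groups were apart, and the difference from untreated was 2.77 ± 0.07 with poly I:C, a fold of 6.82, and 0.87 ± 0.07 with PAM, a fold of 1.82.

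Parp12, a zinc-finger protein known for its antiviral action, stood at -0.93 and -0.76 untreated, at 1.64 and 1.69 after poly I:C and at 0.04 and -0.04 after PAM. It was higher by 2.51 ± 0.08 with poly I:C and by 0.85 ± 0.08 with PAM, folds of 5.7 and 1.8. Its ordering of the groups was that of Parp10.

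Parp8, a little-studied member, stood at -0.95 and -0.80 untreated, at 0.47 and 0.48 after poly I:C and at -0.04 and 0.04 after PAM. The groups were again apart, with smaller steps: 1.36 ± 0.07 for poly I:C minus untreated and 0.88 ± 0.07 for PAM minus untreated. Poly I:C exceeded PAM by 0.48 ± 0.07 for Parp8, the smallest such excess among the 8 genes that were higher with poly I:C.

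Parp11, a WWE-domain enzyme of the nuclear envelope, was high on the poly I:C arrays and on no others. It stood at -0.01 and -0.09 untreated, at 2.70 and 2.70 after poly I:C and at -0.04 and 0.01 after PAM. The untreated and PAM values overlapped, with a difference (PAM minus untreated) of 0.04 ± 0.07 and a 95% interval from -0.11 to 0.19. Its poly I:C difference was 2.75 ± 0.07, a fold of 6.74, and poly I:C exceeded PAM by 2.72 ± 0.07, the largest excess of the 10 genes. For Parp3 and Parp11 the PAM differences from untreated were 0.17 ± 0.06 and 0.04 ± 0.07. The contrast between the agents is measured by the direct poly I:C minus PAM differences, 1.20 ± 0.06 and 2.72 ± 0.07, which are descriptions too.

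Set in order by the poly I:C difference from untreated, the genes ran Parp10, Parp11, Dtx3l, Parp12, Parp14, Parp9, Parp3, Parp8, Parp2 and Parp1. Differences between genes were not tested, so the order is a description. The 95% interval of Parp10 (2.61 to 2.93) overlapped those of Parp11 (2.60 to 2.90), Dtx3l (2.45 to 2.78) and Parp12 (2.34 to 2.68). That of Parp9 (2.11 to 2.42) lay wholly above that of Parp3 (1.23 to 1.51), and Parp3 overlapped Parp8 (1.19 to 1.52). Under quantile normalization between arrays the poly I:C differences of Parp10, Parp11, Dtx3l and Parp12 were 2.11, 1.99, 2.00 and 1.93. These are differences of log2 intensity from single probes of unlike response, which limits a comparison between genes.

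**Figure D3:**
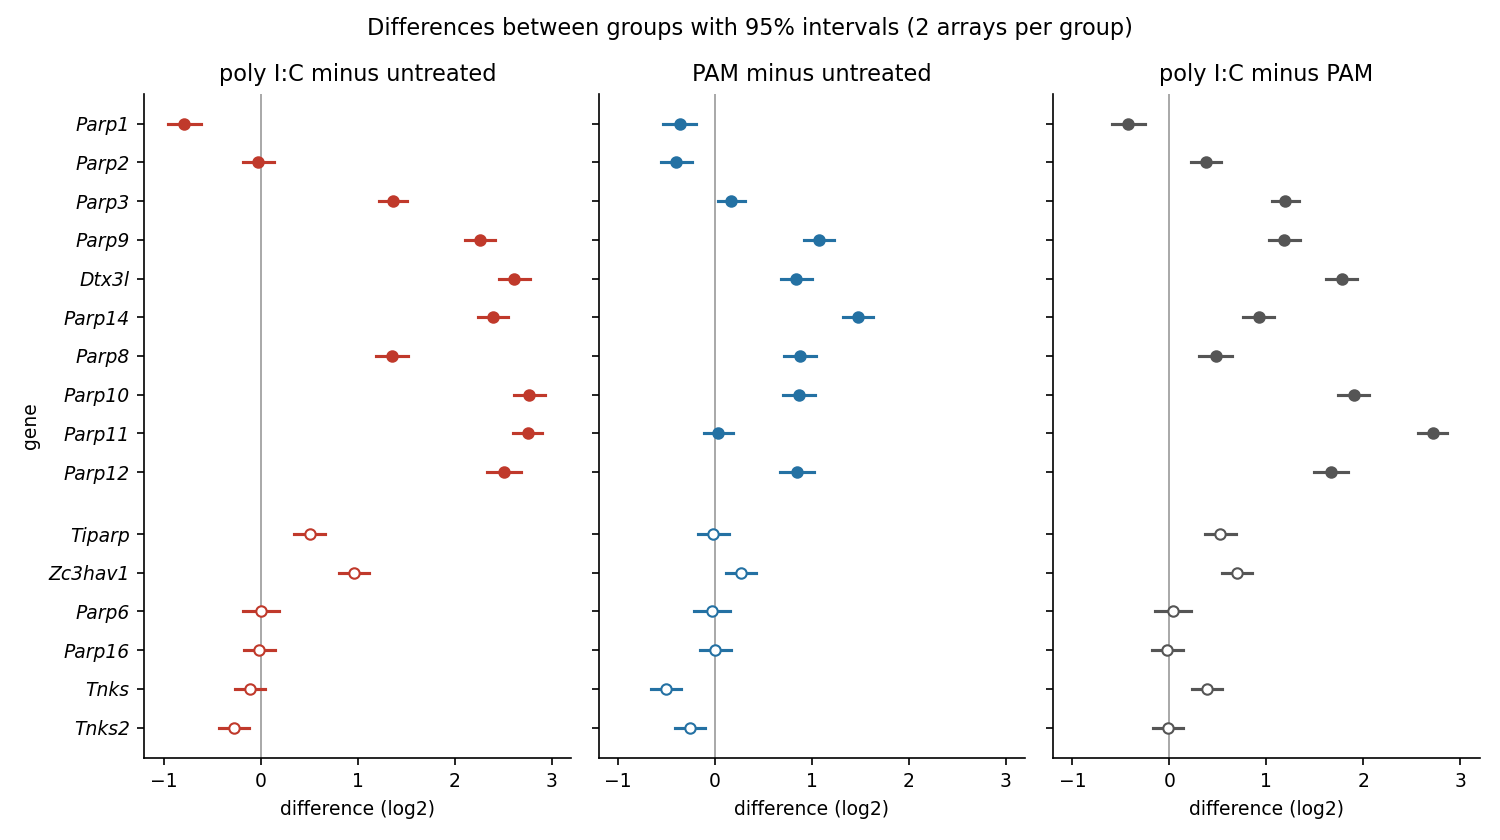
Log2 differences (x axis) with 95% intervals for the 10 genes (filled points) and the 6 other family genes measured (open points), 1 gene per line (y axis), in 3 panels for poly I:C minus untreated, PAM minus untreated and poly I:C minus PAM, 2 arrays per group. Parp11 lies at 2.75, 0.04 and 2.72 in the panels, Parp14 at 2.40, 1.48 and 0.92, and Zc3hav1 at 0.96, 0.27 and 0.70.

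Sequence before the start was available for 7 of the 10 genes, in 8 windows of 250 bases before to 50 bases after a RefSeq start. Each window was searched on both strands for the interferon-stimulated response element GAAANNGAAA, bound by interferon regulatory factors, for the gamma-activated site TTCNNNGAA, and for the kappaB site. Over all 32851 windows of the table, 3.44%, 8.3% and 8.46% held a match. Parp11 was the only one of the 7 genes with a match to any of these, at the first of its 2 starts. The bases from -250 to -11 relative to that start, at chr6:127446590-127446829 on the plus strand of GRCm38.p6, are shown because they hold this match. Capitals mark motif matches.

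Parp11: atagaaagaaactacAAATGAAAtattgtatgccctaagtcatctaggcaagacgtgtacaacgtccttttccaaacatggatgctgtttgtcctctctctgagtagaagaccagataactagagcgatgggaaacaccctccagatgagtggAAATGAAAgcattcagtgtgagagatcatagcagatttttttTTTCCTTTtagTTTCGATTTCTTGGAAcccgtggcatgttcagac

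In this stretch the interferon-stimulated response element lies at -44 to -35 on the reverse strand, as TTTCGATTTC, and overlaps the gamma-activated site at -37 to -29, TTCTTGGAA. The other capitals are matches to AANNGAAA, a shorter core of interferon regulatory factor sites that was added after the first motifs had been searched and occurs in 23.9% of all windows. That core was also found in the windows of Parp2, at -94 to -87, and Dtx3l, at 43 to 50 after the start, and outside the set in those of Parp4, Parp16 and Tnks2. Among the other family genes, the Zc3hav1 window held a kappaB match at -100 to -91, that of Parp16 a gamma-activated site at -4 to 5, and that of Parp4 2 overlapping response elements from -150 to -135. Parp11's first window was 42% G and C and its second was 59%, against a median of 52.7% over all windows. Which start these cells use was not tested. A match is a description of letters in a window and shows no binding, and the windows of Parp1, Parp3, Parp8 and Parp12 held no match to the 4 motifs.

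**Figure D4:**
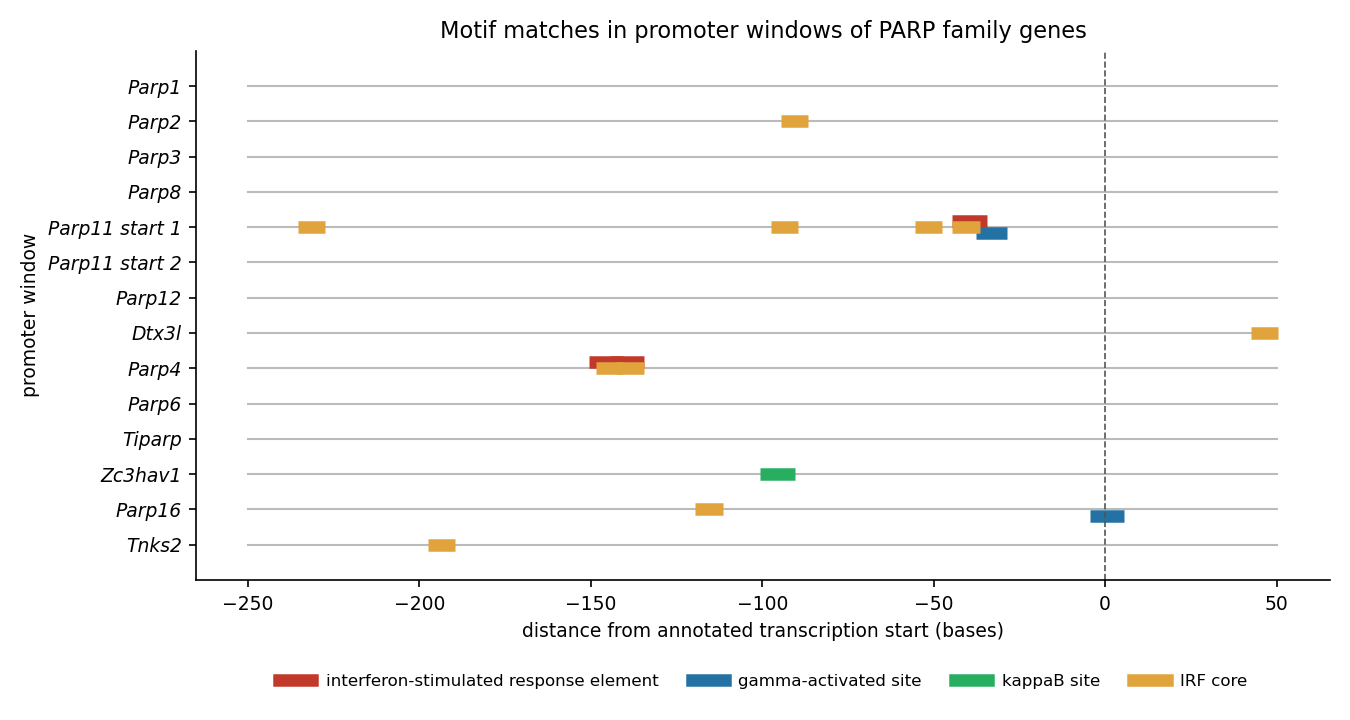
Matches to the 4 motifs (coloured bars) by distance in bases from the annotated transcription start (x axis, dashed line at the start) in the promoter windows of the PARP family genes that had one (y axis). The response element and the gamma-activated site overlap in the first Parp11 window, and most windows of the 10 genes are empty.

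Of 7 family genes outside the set, 6 were measured alone. The probe of Parp4 names a second gene, Mphosph8, and gives it no value here. Zc3hav1, a catalytically inactive relative that binds CpG-rich viral RNA, stood at -0.31 and -0.22 untreated, at 0.66 and 0.73 after poly I:C and at 0.02 and -0.02 after PAM. It rose by 0.96 ± 0.07 with poly I:C (limma adjusted p = 6.73e-06) and by 0.27 ± 0.07 with PAM (adjusted p = 0.0188), and poly I:C exceeded PAM by 0.70 ± 0.07 (adjusted p = 5.44e-05). Tiparp, which adds single units and is known as a target of the aryl hydrocarbon receptor, stood at -0.06 and -0.01 untreated, at 0.44 and 0.50 after poly I:C and at -0.11 and 0.01 after PAM. It rose by 0.51 ± 0.07 with poly I:C (limma adjusted p = 0.000514), and its PAM difference was -0.02 ± 0.07 (adjusted p = 0.907).

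The tankyrases, which make chains on axin and telomere proteins, were lower in some groups. Tnks stood at 0.12 and 0.11 untreated, at 0.06 and -0.06 after poly I:C and at -0.39 and -0.39 after PAM, and fell by 0.51 ± 0.07 with PAM (limma adjusted p = 0.000527). Its poly I:C difference was -0.11 ± 0.07 (adjusted p = 0.28). Tnks2 fell by 0.28 ± 0.07 with poly I:C and by 0.26 ± 0.07 with PAM (limma adjusted p = 0.0126 and 0.0202). Parp6 and Parp16 had differences between -0.03 and 0.01 from untreated, with adjusted p from 0.844 to 0.978 by limma. In all, 2 of these 6 genes rose and 1 fell with poly I:C, and 1 rose and 2 fell with PAM, with median differences of -0.00 and -0.03. The Zc3hav1 PAM call was lost without untreated sample 1 (adjusted p = 0.075) and without PAM sample 1 (0.12) or 2 (0.0712). The Tnks2 calls were lost without untreated sample 2 (adjusted p = 0.0508 for poly I:C and 0.0735 for PAM), without poly I:C sample 2 (0.0977 for poly I:C) and without PAM sample 1 (0.135) or 2 (0.0673), and with either PAM sample left out 1 of the 6 genes was called for PAM.

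Of 8 measured hydrolases and erasers, which remove ADP-ribose, 1 rose and 2 fell with poly I:C, and 1 rose and 2 fell with PAM. The list's median differences were -0.10 and -0.10, against the medians of all genes given above. Macrod1, a macrodomain hydrolase that takes single units off proteins, fell by 0.60 ± 0.08 with poly I:C (limma adjusted p = 3e-04). Its PAM difference of -0.32 ± 0.08 (limma adjusted p = 0.0132) was lost without untreated sample 1 (0.0568) or PAM sample 2 (0.112). Nudt5, which cleaves free ADP-ribose, fell by 0.41 ± 0.08 with poly I:C (limma adjusted p = 0.00427) and was higher by 0.34 ± 0.08 with PAM (adjusted p = 0.0144), a call lost without PAM sample 1 or 2 (0.0624 and 0.0843). Nudt9, also an ADP-ribose pyrophosphatase, rose by 0.48 ± 0.07 with poly I:C (adjusted p = 0.00073), and Oard1, a macrodomain hydrolase, fell by 0.49 ± 0.09 with PAM (adjusted p = 0.00287), both by limma. None of the 4 measured ecto-ADP-ribosyltransferases, which act on cell-surface proteins, passed the limma threshold with either agent (1 of the 4 with poly I:C and 0 with PAM at an unadjusted p under 0.05), with median differences of 0.12 and 0.08.

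Of 13 genes that work with Parp1 at strand breaks, 3 rose and 5 fell with poly I:C, and 2 fell with PAM, with median differences of -0.23 and -0.04. Hpf1, the cofactor that directs Parp1 to serine residues, fell by 0.81 ± 0.08 with poly I:C (limma adjusted p = 5.25e-05) and lay below PAM by a difference of -0.58 ± 0.08 (adjusted p = 0.000464). Apex1, the abasic-site endonuclease, fell by 0.54 ± 0.07 with poly I:C (limma adjusted p = 0.000329). Parp1 itself was also lower there. Timeless, which binds Parp1 at replication forks and breaks, rose by 1.17 ± 0.09 with poly I:C (limma adjusted p = 1.45e-05), and Polb, the repair polymerase, rose by 0.66 ± 0.08 (adjusted p = 0.000198). Fen1, the flap endonuclease, fell by 0.53 ± 0.10 with poly I:C and by 0.72 ± 0.10 with PAM (limma adjusted p = 0.00308 and 0.000651). Aplf, which binds poly(ADP-ribose), fell by 0.43 ± 0.08 with poly I:C (limma adjusted p = 0.00339). Its PAM difference was -0.32 ± 0.08 (limma adjusted p = 0.022), a call lost without untreated sample 2 (difference -0.22) or PAM sample 1 (-0.25).

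Of 19 genes of NAD synthesis and recycling, the supply of the substrate, 8 rose and 4 fell with poly I:C, and 3 rose and 2 fell with PAM, with median differences of 0.14 and 0.07. Nampt, the rate-limiting enzyme that remakes NAD from nicotinamide, rose by 0.98 ± 0.07 with poly I:C (limma adjusted p = 5.17e-06) and by 1.14 ± 0.07 with PAM (adjusted p = 2.3e-06). Its poly I:C minus PAM difference was -0.16 ± 0.07 (limma adjusted p = 0.129). Kynu, kynureninase of the route from tryptophan, rose by 2.22 ± 0.08 with poly I:C (limma adjusted p = 9.37e-08), and poly I:C exceeded PAM by 2.40 ± 0.08 (adjusted p = 6.76e-08). Nadk, which phosphorylates NAD, rose by 0.69 ± 0.06 with poly I:C and by 0.83 ± 0.06 with PAM (limma adjusted p = 3.2e-05 and 1.16e-05). The mitochondrial kinase Nadk2 fell by 0.45 ± 0.06 and by 0.50 ± 0.06 with poly I:C and PAM (limma adjusted p = 0.000528 and 0.000375). Naprt, of the nicotinic acid route, had differences of -0.33 ± 0.08 and -0.36 ± 0.08 (limma adjusted p = 0.0124 and 0.0104). Those calls were lost without poly I:C sample 2 (0.0966), and without PAM sample 1 (0.0644) or 2 (0.0518).

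Among 9 measured NAD glycohydrolases and sirtuins, other consumers of NAD, 3 rose and 1 fell with poly I:C, and 2 rose and 5 fell with PAM, with median differences of 0.11 and -0.24. Bst1, a surface NAD glycohydrolase, rose by 2.00 ± 0.07 with PAM (limma adjusted p = 9.42e-08) and by 0.55 ± 0.07 with poly I:C (adjusted p = 0.000306), so that poly I:C minus PAM was -1.46 ± 0.07 (adjusted p = 5.04e-07). The deacylase Sirt6 rose by 0.90 ± 0.06 with poly I:C (limma adjusted p = 6.41e-06). The nuclear deacetylases Sirt7 and Sirt1 fell by 0.57 ± 0.07 and by 0.49 ± 0.08 with PAM (limma adjusted p = 0.000254 and 0.00154). The Sirt6 PAM difference of 0.28 ± 0.06 (limma adjusted p = 0.0102) was lost without PAM sample 1 (0.0565) or 2 (0.0722). Sirt5, a mitochondrial deacylase, had a poly I:C difference of -0.37 ± 0.09 (limma adjusted p = 0.011), lost without untreated sample 2 (0.0514) or poly I:C sample 2 (0.0963). Its PAM difference of -0.30 ± 0.09 (limma adjusted p = 0.0393) was lost without untreated sample 2 (0.189), without any one of the poly I:C or PAM samples (0.0643 to 0.157) and in a fit of the 4 arrays compared (0.0643). The Sirt7 poly I:C difference of 0.22 ± 0.07 (limma adjusted p = 0.0375) was lost in that fit of 4 arrays (0.0662) and when any one sample other than poly I:C sample 2 was left out (0.0606 to 0.216). Of the 4 other Deltex ligases, relatives of Dtx3l, 1 rose and 2 fell with poly I:C and 2 rose with PAM, with median differences of -0.11 and 0.47. Dtx2 rose by 0.73 ± 0.07 with poly I:C and by 1.19 ± 0.07 with PAM (limma adjusted p = 4.06e-05 and 1.95e-06). Dtx4 fell by 0.33 ± 0.06 with poly I:C and rose by 0.98 ± 0.06 with PAM (limma adjusted p = 0.00353 and 4.77e-06), a poly I:C minus PAM difference of -1.31 ± 0.06 (adjusted p = 5.6e-07). For Dtx2 and Dtx4 the PAM value was thus the higher one, where for Dtx3l the poly I:C value was. The Dtx3 poly I:C difference of -0.28 ± 0.09 (limma adjusted p = 0.0445) was lost under quantile normalization between arrays (-0.23, limma adjusted p = 0.0914). That call was also lost without untreated sample 2 (difference -0.19) or poly I:C sample 1 (-0.25) or 2 (-0.31).

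Interferon signalling genes were counted beside these lists. With poly I:C 9 of 10 rose, and with PAM 8 of 10 rose, with median differences of 1.12 and 0.70. Usp18, which limits signalling from the type I interferon receptor, rose by 5.26 ± 0.09 with poly I:C and by 1.13 ± 0.09 with PAM (limma adjusted p = 9.6e-10 and 1.22e-05). Irf7, the transcription factor that amplifies interferon production, rose by 5.20 ± 0.13 with poly I:C and by 1.64 ± 0.13 with PAM (limma adjusted p = 7.96e-09 and 1.41e-05). Socs1, the feedback inhibitor of Janus kinases, rose by 1.12 ± 0.07 with poly I:C and by 1.79 ± 0.07 with PAM (limma adjusted p = 2.12e-06 and 1.33e-07). For Socs1, poly I:C minus PAM was -0.67 ± 0.07 (limma adjusted p = 5.61e-05). Under quantile normalization the poly I:C differences of Usp18 and Irf7 were 3.86 and 3.87.

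**Figure D5:**
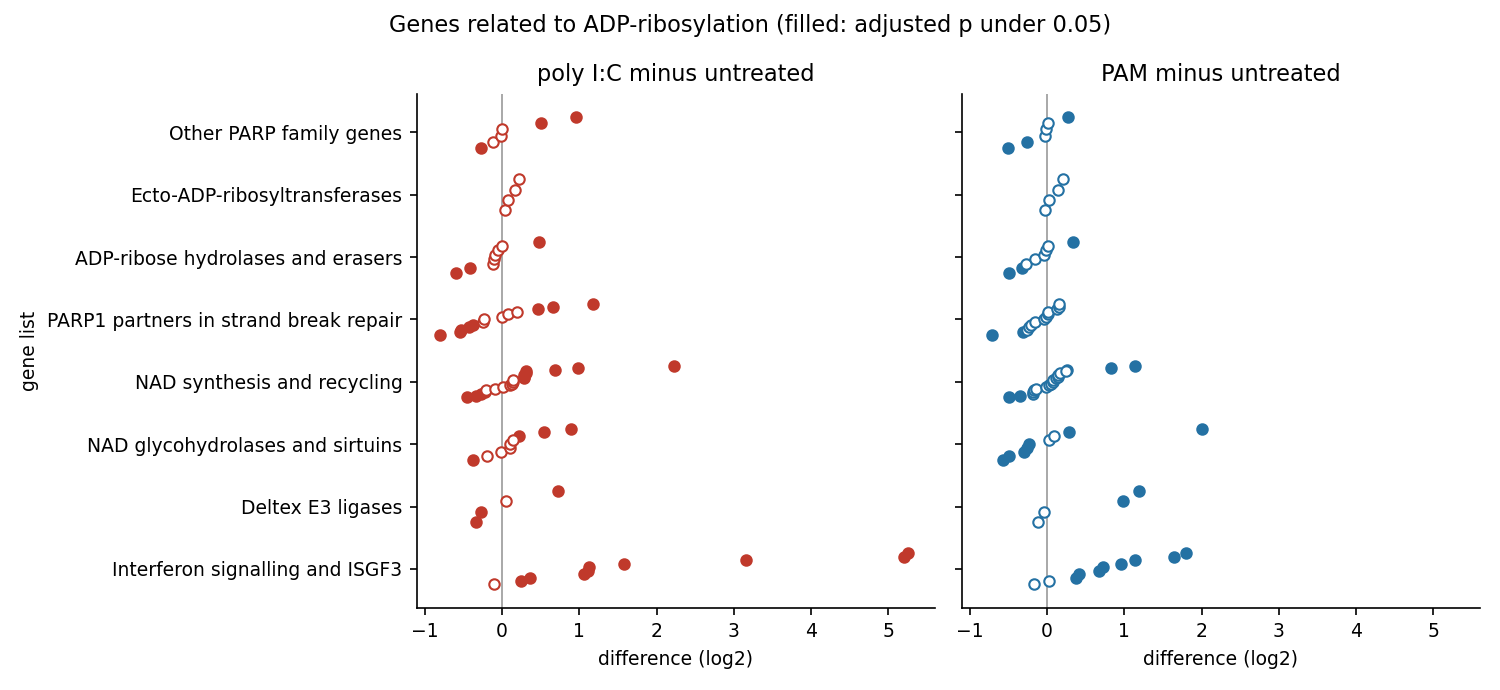
Log2 difference from untreated macrophages (x axis, the same scale in both panels) of each measured gene in lists related to ADP-ribosylation (y axis), poly I:C on the left and PAM on the right, 2 arrays per group. Filled points passed a limma adjusted p of 0.05. The interferon list reaches 5.26 with poly I:C, and the ecto-enzymes hold no filled point.

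For each gene whose group means spanned at least 1 on the log2 scale, the genes with the most similar centred values over the 6 arrays were found by root-mean-square difference. For Parp11 they were Dnase1l3 (0.0729), Sass6 (0.0872) and Daxx (0.1087). Closest to Parp3 were H2-M3 (0.0386), Fndc3a (0.0467) and Lrp11 (0.0484). Lgals9 was among the nearest 3 of Parp10 (0.103), Parp12 (0.0964) and Dtx3l (0.0486), Helz2 was beside Parp10 (0.0748) and Dtx3l (0.0781), and Klra2 beside Dtx3l (0.0697). Psmb10 was nearest to Parp10 (0.0681), and Psmb8 (0.0947) and Psmb9 (0.1227) were near Parp12. Parp14 had Nupr1 (0.0596), Pnp (0.1165) and Cd274 (0.1527). Next to Parp9 stood Ccl7 (0.0652), Tent5c (0.0664) and Trib3 (0.0814), and next to Parp8 stood Traf2 (0.0694), Tjp1 (0.0743) and Rhou (0.0948). With 6 arrays in 3 groups, the measure rests mainly on the 2 differences between group means.

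The centred values still carry the rounding step of the numbers they were made from, which is coarser for values of 8 or above (log2). A probe within 0.2 of the coarser step on all 6 arrays was taken to lie at 8 or above throughout, an inference from the digits and not a measured level. On olfactory receptor probes, which macrophages hardly use, 49.5% of single values lay on the coarser step, and 15 of 1023 such probes (1.47%) did so on all 6 arrays. Of all 28815 probes, 8016 (27.8%) did so on 6 arrays and 2541 (8.82%) on 5. The 6-array rule took in 8 of the 10 genes, not Parp10 and Parp11, which were on the step on 5 arrays each. All 9 macrophage markers met it, Cd68, Csf1r and Adgre1 among them, as did 1 of 5 markers of resident peritoneal macrophages, not Gata6, Timd4, Icam2 or Alox15. It was also met by 1 of 6 markers of B cells, 1 of 7 of T and NK cells, 0 of 7 of neutrophils, 0 of 6 of mast cells, 0 of 6 of dendritic cells and 4 of 7 of mesothelial cells and fibroblasts, the 4 being Col1a1, Col1a2, Col3a1 and Dcn. The mean centred value of the mesothelial and fibroblast list ran from -0.10 to 0.20 untreated, from -0.20 to -0.14 with poly I:C and from 0.16 to 0.18 with PAM, and 3 of its 7 genes fell with poly I:C. With PAM 1 of them rose and 1 fell, Dcn by a difference of 0.95 and Upk3b by -0.45, and the list's median difference was 0.02. That of the neutrophil list ran from -0.09 to 0.03 untreated, from -0.07 to 0.01 with poly I:C and from 0.30 to 0.35 with PAM, and 2 of its 7 genes rose with PAM, S100a8 by 2.04 and Camp by 0.64. The other 5 neutrophil markers lay between -0.13 and 0.05 with PAM, and the list's median difference was -0.00. Of the 6 B cell markers, 2 rose and 1 fell with poly I:C and 3 rose and 1 fell with PAM. The macrophage list's mean ran from 0.32 to 0.36 untreated, from -0.16 to -0.12 with poly I:C and from 0.16 to 0.19 with PAM. Of its 9 genes, 2 rose and 4 fell with poly I:C, with Fcgr1 higher by 2.65 and Mrc1, Itgam and Cd14 at differences of -3.27, -1.49 and -1.29. Under PAM 3 rose and 4 fell. Cd14, Adgre1 and Csf1r were higher with PAM by 2.39, 1.38 and 0.74. Mrc1, Fcgr1, Mertk and Itgam had PAM differences of -2.57, -1.72, -1.23 and -0.485. Of the 5 resident markers, 2 rose and 2 fell with poly I:C, Timd4 by 2.44 and Cd93 by -2.09 at the extremes, and 1 rose and 2 fell with PAM. The genes named from these lists were picked after their values were seen. The part of these cells in the differences of the 10 genes was not tested.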

How the data were processed

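RNA of 6 samples was hybridised to Affymetrix arrays. The authors deposited 1 table of log2 values per probe, centred on each probe's median over the arrays; the log base is taken from the range of values, and the normalization is not given in the sources used here. Of 28815 probes, 21780 named 1 gene, 1605 several and 5430 none; probes of 1 gene were averaged, giving 19935 genes. Differences were fitted with limma 3.58.1 (R 4.3.3; lmFit and eBayes without trend, all 6 arrays, one mean per group, 3 residual and 5.68 prior degrees of freedom) and adjusted by Benjamini-Hochberg over all genes. The script was tested on simulated data. An exact permutation test of 2 against 2 cannot go below p = 0.333 (two-sided). The number of arrays limits precision; folds are 2 to the power of the log2 difference. The rounding step is a multiple of 2 to the power of minus 20. Promoter and gene tables were RefSeq GRCm38.p6, and motifs were searched in Python 3.11.15.

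The 10 genes and all lists were chosen with earlier results of these data known. From each list, the text names up to 2 genes that rose most and 2 that fell most past the threshold, per agent. For likeness, the nearest 3 genes outside the set were named. Alternatives changed the centring, normalization, variance fit, probes, replicate block and arrays.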

Additional observations from a re-analysis of the deposited data

How the results depend on the processing

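No alternative that was run turned the direction of a called difference of the 10 genes or the 6 other family genes. Requiring at least a 2-fold difference beside the threshold left 960, 838 and 991 genes for poly I:C minus untreated, PAM minus untreated and poly I:C minus PAM, where the counts were otherwise 6059, 4983 and 5725. It left 8, 2 and 6 of the 10 genes, 0, 0 and 0 of the other family genes, and 9, 6 and 8 of the genes of the related lists. Testing only genes at 8 or above on all arrays left 27 genes of the related lists. Of these, 22 were called for poly I:C, where 4055 of all 6094 genes tested were called. The PAM difference of Parp3 was the same there, 0.17, and 3611 of the 6094 genes were called for PAM. Quantile normalization forces equal tails on centred values. It lowered the poly I:C difference of Parp11 from 2.75 to 1.99 and that of Parp10 from 2.77 to 2.11, with direction kept. It moved Usp18 from 5.26 to 3.86 and Irf7 from 5.20 to 3.87, with direction and call kept. Leaving out 1 array at a time gave 4452 to 6588, 3503 to 5190 and 4364 to 6296 genes, and 1 to 3 other family genes for PAM. With the replicate number as a block, 6026, 4918 and 5698 genes and 9, 8 and 10 of the 10 genes were called. Deviations of samples of the same number from their group means correlated between groups at -0.073, 0.155 and -0.01 over genes. With 2 samples per group, these correlations cannot settle whether samples of the same number shared an origin. Each group's 2 arrays limit all of these results.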

Other observations

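Genes beside each of the 10 genes on the chromosome were looked up after values had been seen, and 15 of these 16 neighbours were measured. Hspbap1 and Kpna1, described above, are among them. With poly I:C 3 rose and 6 fell, where 12.1% of all genes rose and 18.2% fell, and with PAM 4 rose and 2 fell, where 11.0% and 14.0% of all genes did. Ccnd2, the cyclin beside Parp11, rose by 1.61 ± 0.10 with poly I:C and had a PAM difference of -0.08 ± 0.10 (limma adjusted p = 0.681). Grina, beside Parp10, rose by 1.26 ± 0.07 with poly I:C and by 0.49 ± 0.07 with PAM (limma adjusted p = 0.00047 for PAM). Plec, on the other side of Parp10, fell by 0.46 ± 0.06 with poly I:C and rose by 0.32 ± 0.06 with PAM (limma adjusted p = 0.00053 and 0.00574). Emb, beside Parp8, fell by 2.24 ± 0.08 with poly I:C and had a PAM difference of -0.04 ± 0.08 (limma adjusted p = 0.798). Tbxas1, thromboxane synthase, beside Parp12, fell by 1.57 ± 0.09 with poly I:C and by 0.79 ± 0.09 with PAM (limma adjusted p = 0.00014 for PAM). Kdm7a, on the other side of Parp12, fell by 0.43 ± 0.07 with poly I:C and rose by 0.86 ± 0.07 with PAM (limma adjusted p = 0.00156 and 2e-05). The neighbours named here were picked after their values were seen.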
